A study of Mus musculus with 6 samples.

Results

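The pocket proteins, the MuvB core subunits and the mitotic activators B-Myb and FoxM1 were followed as a group of 9 genes: Rb1, Rbl1, Rbl2, Lin9, Lin37, Lin52, Lin54, Mybl2 and Foxm1. They were grouped by their known function, with earlier results of these data known. A probe set counted for a gene when its platform annotation gave that symbol and no other, which matched all 9 genes with 10 probe sets, out of 19938 genes and 21789 probe sets named in this way. The samples came from weaned CyclinB1-GFP transgenic mice, 3.5 weeks old, whose GFP reporter bears the name of cyclin B1, a cyclin of G2 and mitosis. Liver cells of 3 mice were sorted into a GFP-positive fraction, labelled replicating, and a GFP-negative fraction, labelled quiescent, with 3 Affymetrix arrays of amplified total RNA per group. All 6 samples share the transgene, and the labels give neither its promoter nor a group of mice without it. By the series' design, every liver gave cells to both fractions, so the groups differ in the reporter and not in the animals.

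Pocket proteins hold E2F transcription factors at the promoters of cell cycle genes and keep those genes off in resting cells. In the DREAM complex a pocket protein of the p107 or p130 type joins E2F4 or E2F5, a dimer partner and the MuvB core, whose LIN54 subunit touches a DNA element called CHR. When cells enter the cycle the pocket protein leaves, B-Myb and later FoxM1 bind MuvB in its place, and genes of G2 and mitosis are switched on. The question here is which of these regulators differ in transcript level when the sorted fractions of young liver are set side by side.

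Of the 9 genes, 3 rose in GFP-positive cells and none fell: Foxm1, the pocket protein gene Rbl1 and the MuvB subunit gene Lin54. Over all genes 1.55% were called higher and 0.115% lower at an adjusted p below 0.05, from limma with Benjamini-Hochberg adjustment over 19938 genes. At an unadjusted p below 0.05, which 8.8% of all genes reached, limma gave 4 of the 9 as higher and 0 as lower. In 4 of the 9, namely these 3 and Lin9, the 3 GFP-positive values all lay above the 3 GFP-negative ones, as they did in 6.82% of all genes. The other 5, among them Mybl2, had overlapping groups. In sorted bulk samples fewer cells of a type and less RNA per cell cannot be told apart, so a level is an average over each fraction. Levels are log2 intensities, given per array in the order of replicates 1, 2 and 3 or as mean ± SD (n = 3). Each difference is the GFP-positive minus the GFP-negative mean ± SE, on the log2 scale. A level can be read against the 6 array medians over all probe sets (4.60 to 4.74). With 3 arrays a group, precision is limited by their number.

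**Figure D1:**
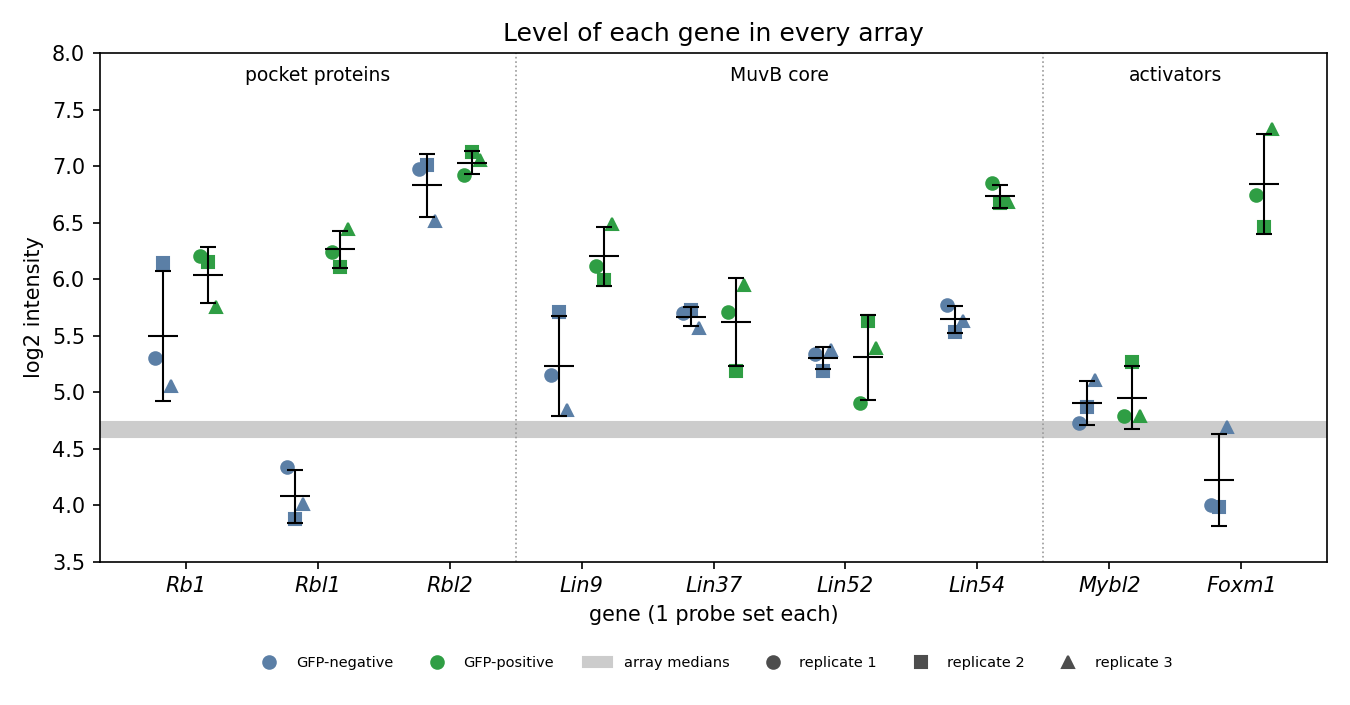
Log2 intensity (vertical axis) of the 9 genes in each of the 6 arrays, with GFP-negative arrays in blue and GFP-positive arrays in green, marker shape giving the replicate number, and bars giving the mean and SD of 3 arrays. The grey band spans the 6 array medians (4.60 to 4.74): Rbl1 and Foxm1 lay below their array medians in GFP-negative cells and far above them in GFP-positive cells, while Mybl2 stayed close to the band in both groups.

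Among the pocket proteins Rbl1 rose, while Rb1 and Rbl2 did not pass the test. Rbl1 encodes p107, a partner of E2F4 in cycling cells whose own gene is a known E2F target. Its GFP-negative values were 4.34, 3.88 and 4.01, and its GFP-positive values were 6.24, 6.11 and 6.44. Every GFP-negative value lay below its array's median and every GFP-positive value above it. The measured difference was 2.19 ± 0.16 (95% interval 1.82 to 2.56, adjusted p = 5.6e-05), and it ranked 96 from the top among the 19938 genes. Since the low level has no detection call, the fold is estimated with values under an array's median raised to that median: 3.04-fold higher.

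Rbl2 encodes p130, the pocket protein known for holding DREAM together in resting cells. Its values were 6.97, 7.01 and 6.51 in the GFP-negative arrays and 6.92, 7.12 and 7.05 in the GFP-positive arrays. The groups overlapped, with the lowest value in GFP-negative 3. The difference was 0.20 ± 0.17 (95% interval -0.17 to 0.58, adjusted p = 0.85), so the interval runs from 0.888-fold to 1.49-fold and leaves a small difference in either direction possible. Rb1, the retinoblastoma gene and the first known pocket protein, had values of 5.30, 6.14 and 5.05 in the GFP-negative arrays and 6.20, 6.15 and 5.75 in the GFP-positive arrays. GFP-negative 2 lay apart from the other GFP-negative arrays and inside the GFP-positive range. Number 2 also stood apart from numbers 1 and 3 in the sex-linked genes Xist and Eif2s3y, in both groups. Whether this bears on the values of Rb1 or Lin9 was not tested. The Rb1 difference of 0.54 ± 0.26 (95% interval -0.06 to 1.13) had an adjusted p of 0.62. Between arrays of the same replicate number it was 0.90, 0.01 and 0.70.

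Whether the pocket protein genes moved unequally was asked from the ratio of 2 genes within each array. The log2 ratio of Rbl1 to Rbl2 was -0.77 ± 0.21 in GFP-positive against -2.75 ± 0.33 in GFP-negative cells (n = 3 each), a shift of 1.98 with no overlap. Within replicate numbers the shift was 1.95, 2.12 and 1.88. The ratio of Rbl1 to Rb1 shifted by 1.65, with 1.0, 2.22 and 1.72 within numbers. Both shifts rest on GFP-negative Rbl1 values under the array medians, and with the floor at those medians they were 1.40 and 1.07. In an exact two-sided permutation test both shifts had p = 0.1, the smallest that 3 against 3 arrays allow, and 0.15 after adjustment over the 6 pairs of genes compared.

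The promoter windows of Rbl1 and Rbl2 are shown because these related genes gave differences of 2.19 and 0.20. Each holds 250 bases before and 50 after a transcript start, from RefSeq in build GRCm38.p6, read 5′ to 3′ on the strand of the gene. Promoters were matched for 6 of the 9 genes, without Rb1, Lin9 and Foxm1. Capitals mark any of the motifs searched on both strands: the CHR forms TTTGAA and TTTAAA (the latter reads the same on both strands), the NF-Y box CCAAT, and the E2F core as TTCCCGC or, in other spellings, as TTGGCGC or as TTCGCGC or as TTGGCGG. The reverse of CCAAT can share letters with TTGGCGC and TTGGCGG, which it did in none of the windows printed here. Rbl1 lies on the minus strand at chr2:157204485-157204784 and Rbl2 on the plus strand at chr8:91069807-91070106.
Rbl1: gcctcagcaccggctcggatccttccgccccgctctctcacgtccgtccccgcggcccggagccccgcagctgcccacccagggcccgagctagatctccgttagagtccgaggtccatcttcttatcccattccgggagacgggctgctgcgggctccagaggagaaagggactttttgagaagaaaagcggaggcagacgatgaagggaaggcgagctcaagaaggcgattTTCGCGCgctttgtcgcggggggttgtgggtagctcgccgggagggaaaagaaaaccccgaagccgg
Rbl2: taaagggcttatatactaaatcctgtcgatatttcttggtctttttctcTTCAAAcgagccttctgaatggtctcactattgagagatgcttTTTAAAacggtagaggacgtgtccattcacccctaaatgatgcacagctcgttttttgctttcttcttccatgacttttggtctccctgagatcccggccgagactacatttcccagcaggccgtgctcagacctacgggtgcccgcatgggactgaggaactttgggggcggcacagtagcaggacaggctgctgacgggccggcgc
The Rbl1 window had a single match, TTCGCGC beginning 17 bases before the start, a motif found in 1.59% of all 32851 promoter windows of the table. The Rbl2 window had TTTGAA on the reverse strand 201 bases before the start and TTTAAA 158 bases before it, motifs found in 17.9% and 13.2% of all windows, and no match to an E2F core. A match describes letters and not a bound site, and a missing match says only that these letters are not in the window.

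Of the 4 LIN genes of the MuvB core, Lin54 rose and Lin9, Lin37 and Lin52 did not pass. Rbbp4, the remaining subunit gene, is given with the DREAM partners. LIN54 is the DNA-binding subunit that recognises CHR elements. Its values were 5.77, 5.53 and 5.63 in the GFP-negative arrays and 6.85, 6.67 and 6.68 in the GFP-positive arrays. The groups were well apart and both were tight, with an SD of 0.12 and 0.10. Lin54 was 2.13-fold higher in GFP-positive cells (difference 1.09 ± 0.14, 95% interval 0.78 to 1.40, adjusted p = 0.0022). Within replicate numbers the difference was 1.08, 1.14 and 1.06, and it ranked 254 among the 19938 genes.

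Lin9, which encodes a subunit that contacts B-Myb, had values of 5.15, 5.71 and 4.84 in the GFP-negative arrays and 6.12, 5.99 and 6.49 in the GFP-positive arrays. All GFP-positive values were above all GFP-negative ones, but GFP-negative 2 came close to GFP-positive 2. The difference was 0.96 ± 0.23 (95% interval 0.45 to 1.48, adjusted p = 0.095), and within numbers it was 0.97, 0.28 and 1.64. Without GFP-negative 2 it was 1.20 with an adjusted p of 0.019, and without both arrays of number 2 it was 1.31 with an adjusted p of 0.020, so Lin9 was called only where that array was left out or, among the other alternatives, with array weights (adjusted p = 0.034). The within-array ratio of Lin9 to Lin54 differed by -0.13 between groups (exact permutation p = 0.7, n = 3 each), with opposite signs among the replicate numbers (-0.11, -0.86 and 0.59).

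Lin37, a subunit known to be needed for repression by DREAM, had values of 5.70, 5.73 and 5.57 in the GFP-negative arrays and 5.71, 5.19 and 5.95 in the GFP-positive arrays. The GFP-positive values lay on both sides of the GFP-negative ones. The difference of -0.05 ± 0.20 (95% interval -0.49 to 0.39) had an adjusted p of 0.98. Lin52 encodes the small subunit whose phosphorylation by the kinase DYRK1A favours DREAM assembly. It had values of 5.34, 5.19 and 5.37 in the GFP-negative arrays and 4.90, 5.63 and 5.39 in the GFP-positive arrays on probe set 10397249, and the difference was 0.00 ± 0.19 (95% interval -0.42 to 0.43, adjusted p = 1.0). A second Lin52 probe set, 10381807, stood at 5.09 ± 0.16 and 5.14 ± 0.20 (n = 3 each), a difference of 0.04 ± 0.16 with an adjusted p of 0.97 over all probe sets. Both probe sets gave overlapping groups. They are annotated to the same transcripts, although where the second one maps is not given in the sources used here, and Lin52 is the only one of the 9 genes with a second probe set.

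Lin54 has 2 transcript starts in the promoter table, both on the minus strand, shown because this subunit rose and reads CHR elements. The upstream start has the window chr5:100500590-100500889 and the downstream start the window chr5:100498524-100498823.
Lin54 upstream: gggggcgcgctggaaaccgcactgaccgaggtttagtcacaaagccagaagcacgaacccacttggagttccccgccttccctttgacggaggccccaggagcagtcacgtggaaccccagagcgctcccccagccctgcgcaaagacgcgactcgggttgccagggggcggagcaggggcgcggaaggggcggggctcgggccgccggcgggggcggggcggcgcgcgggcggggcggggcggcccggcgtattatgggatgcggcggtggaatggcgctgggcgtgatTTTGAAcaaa
Lin54 downstream: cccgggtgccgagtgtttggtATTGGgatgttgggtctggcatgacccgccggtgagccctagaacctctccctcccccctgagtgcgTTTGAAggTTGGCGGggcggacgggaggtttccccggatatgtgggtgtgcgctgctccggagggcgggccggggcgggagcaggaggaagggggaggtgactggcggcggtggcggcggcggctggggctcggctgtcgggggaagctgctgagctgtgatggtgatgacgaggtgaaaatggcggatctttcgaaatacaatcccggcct
The downstream window had TTTGAA beginning 162 bases before the start and TTGGCGG beginning 154 bases before it, so a CHR form and an E2F core stood next to each other, and CCAAT was found on the reverse strand 229 bases before the start. The upstream window had TTTGAA alone, 41 bases after the start. A CHR form together with an E2F core, anywhere in the window and on either strand, was found in 1.62% of all 32851 windows. Counted per gene, 1.87% of 27025 genes had such a window. How often the elements stood next to each other was not counted. Of the MuvB genes that did not pass, Lin37 had 4 matches in its window, 1 of them a CHR form and 1 an E2F core, and Lin52 had 2, 1 of them an E2F core.

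Of the mitotic activators, Foxm1 rose and Mybl2 did not pass, and the ratio of the one to the other was not among the pairs tested. FoxM1 is a forkhead transcription factor that drives genes of G2 and mitosis and is recruited to MuvB late in the cycle. Its values were 4.0, 3.98 and 4.69 in the GFP-negative arrays and 6.74, 6.46 and 7.33 in the GFP-positive arrays. Each GFP-negative value was below its array's median and each GFP-positive value above it, and number 3 was the highest in both groups. The measured difference of 2.62 ± 0.26 (95% interval 2.04 to 3.20, adjusted p = 0.00038) was the largest of the 9 genes and ranked 72 from the top of all genes. With the floor at the array medians the estimate for Foxm1 was 4.54-fold higher. Within replicate numbers the difference was 2.74, 2.48 and 2.63. The sort used the cyclin B1 reporter, and FoxM1 acts on genes of G2 and mitosis. The Foxm1 difference is therefore not independent of how the groups were made.

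B-Myb, encoded by Mybl2, is a transcription factor known to join MuvB in S phase and to be a classic E2F target. Its values were 4.73, 4.87 and 5.11 in the GFP-negative arrays and 4.79, 5.27 and 4.79 in the GFP-positive arrays. All 6 values were above the median of their array, by little, and the groups overlapped. The difference was 0.04 ± 0.18 (95% interval -0.35 to 0.44, adjusted p = 0.98), which corresponds to 0.783-fold to 1.36-fold. The interval excludes a change of the size measured for Lin54, Rbl1 or Foxm1 on this probe set, 10478355, which is the only one named for Mybl2. No detection calls were used here, so whether this probe set reads the transcript well at this level was not tested. The within-array log2 ratio of Mybl2 to Lin54 was -1.79 ± 0.34 in GFP-positive against -0.74 ± 0.27 in GFP-negative cells (n = 3 each), a difference of -1.05 with no overlap (exact permutation p = 0.1, or 0.15 over the 6 pairs), and within numbers it was -1.02, -0.74 and -1.38. The ratio of Mybl2 to Rbl2 differed by -0.16 with overlapping groups (exact permutation p = 0.7), whereas that of Foxm1 to Rbl2 differed by 2.42 with no overlap (-0.19 ± 0.47 in GFP-positive against -2.61 ± 0.68 in GFP-negative cells, exact permutation p = 0.1, or 0.15 over the 6 pairs). With the floor at the array medians the last difference was 1.98.

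The Mybl2 window, on the plus strand at chr2:163054385-163054684, is shown because it holds an E2F core close to the start, as the Rbl1 window does, while Rbl1 was called and Mybl2 was not.
Mybl2: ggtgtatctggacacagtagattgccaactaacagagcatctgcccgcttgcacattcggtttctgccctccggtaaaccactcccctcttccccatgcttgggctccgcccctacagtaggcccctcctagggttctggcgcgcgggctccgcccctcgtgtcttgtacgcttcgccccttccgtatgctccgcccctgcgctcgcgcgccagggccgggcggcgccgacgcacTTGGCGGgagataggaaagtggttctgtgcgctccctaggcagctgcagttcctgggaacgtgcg
That match, TTGGCGG, began 15 bases before the start, against 17 bases for TTCGCGC in Rbl1. It was found in 2.74% of all 32851 windows. Lin52 and Lin37, which were not called either, had an E2F core 26 bases before and 17 bases after the start. Whether such matches bear on the levels was not tested.

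**Figure D2:**
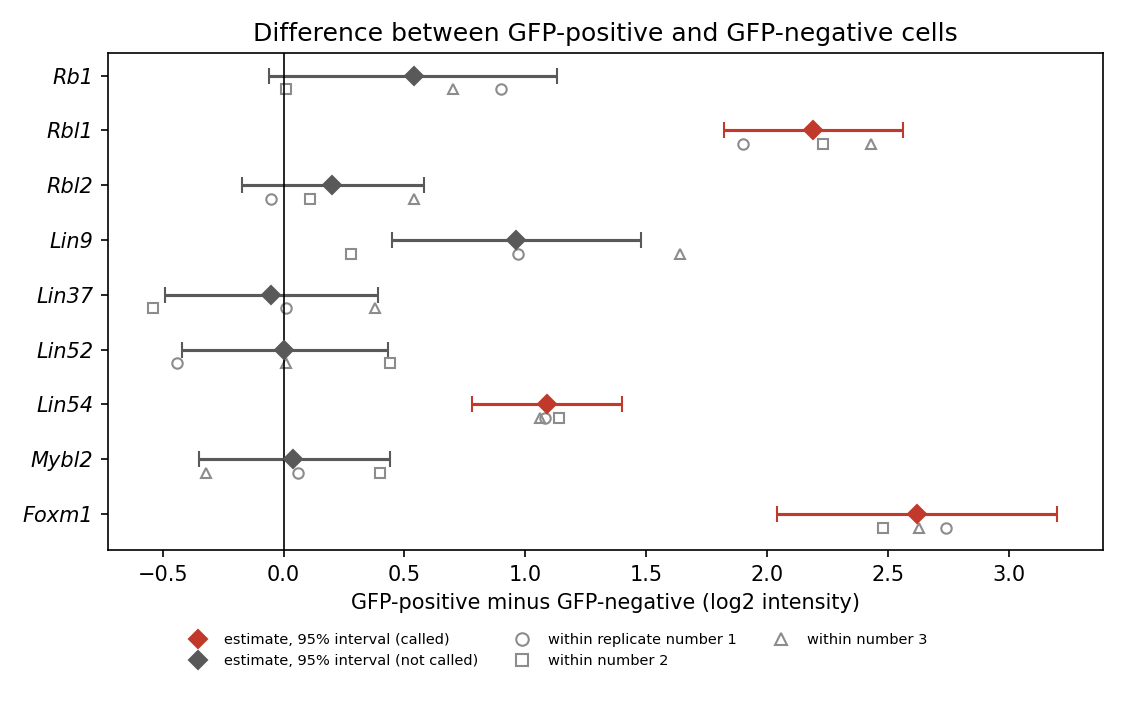
Difference between GFP-positive and GFP-negative cells for the 9 genes (horizontal axis, log2 intensity), as the limma estimate with its 95% interval, in red where the adjusted p was below 0.05, and open markers giving the difference within each replicate number. The intervals of Foxm1, Rbl1 and Lin54 lie far above 0, with numbers from 2.48 to 2.74, 1.90 to 2.43 and 1.06 to 1.14. That of Lin9 lies above 0 with numbers spread from 0.28 to 1.64, and that of Mybl2 (-0.35 to 0.44) is centred near 0.

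The other partners of DREAM did not pass. None of 6 genes was called by limma (median difference 0.16, against -0.03 over all genes). At an unadjusted p below 0.05, which 8.8% of all genes reached in either direction, limma gave 1, Dyrk1a. Its GFP-positive values all lay above its GFP-negative ones, as in 6.82% of all genes. Dyrk1a, the kinase gene named above, stood at 7.19 ± 0.17 in GFP-positive against 6.73 ± 0.21 in GFP-negative cells (difference 0.46 ± 0.16, adjusted p = 0.37). The E2F genes of the complex, E2f4 (-0.09 ± 0.16) and E2f5 (0.12 ± 0.19), the dimer partner genes Tfdp1 (0.21 ± 0.24) and Tfdp2 (0.20 ± 0.20), and Rbbp4 (-0.17 ± 0.24), the histone-binding subunit of MuvB, all had adjusted p-values of at least 0.88.

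Among 6 further E2F genes 1 rose and none fell. E2f8, an atypical repressor E2F, was 2.03-fold higher (7.15 ± 0.27 against 6.12 ± 0.24, adjusted p = 0.022). This call did not hold without GFP-negative 1 or 2 (adjusted p = 0.074 each), without GFP-positive 1 or 3 (adjusted p = 0.10 and 0.11), or with the floor at the array medians (adjusted p = 0.067). E2f3, an activator E2F, had a difference of -0.98 ± 0.23, with every GFP-positive value below every GFP-negative one, as in 6.98% of all genes (4.54 ± 0.17 against 5.53 ± 0.47, adjusted p = 0.082, or 0.033 with the replicate number as a block and 0.0079 without GFP-negative 1). E2f1 lay below the array medians in all 6 arrays, and the differences of E2f1 (0.05 ± 0.14), E2f2 (0.01 ± 0.22), E2f6 (-0.14 ± 0.25) and E2f7 (0.36 ± 0.17) did not pass.

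Of 15 relatives of B-Myb and FoxM1, that is other Myb and forkhead genes, 1 was called. Mybl1, which encodes A-Myb, had a measured difference of 1.68 ± 0.22 (adjusted p = 0.0026), but its group means of 2.66 ± 0.18 and 4.34 ± 0.44 were both under the array medians, so no fold is given. With the floor at the array medians its difference was 0.07 and its adjusted p 0.77. The other 14 genes, with the liver forkhead genes Foxa1, Foxa2 and Foxa3 and the quiescence-linked Foxo1, Foxo3 and Foxo4 among them, did not pass, and the list median was 0.01.

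Some genes that act on the pocket proteins rose. Of 12 genes listed under G1 cyclins, kinases and associated factors, 2 rose and none fell in limma (list median 0.13). At an unadjusted p below 0.05, which 8.8% of all genes reached in either direction, 4 were higher and 1 lower. The 2 that rose were Ccna2, the gene of cyclin A2, which is not a G1 cyclin (9.0 ± 0.21 against 5.03 ± 0.49, 15.6-fold, adjusted p = 1.1e-05), and Cks1b, a small kinase-binding subunit gene (4.18-fold, adjusted p = 0.00023). None of the cyclin D and cyclin E genes or their kinase genes was called in that limma fit. Named after their values were seen, the kinase gene Cdk6 (-0.57 ± 0.18, adjusted p = 0.30, groups not overlapping) was called lower without GFP-negative 3 (-0.77, adjusted p = 0.044), and the cyclin E2 gene Ccne2 (0.76 ± 0.23, adjusted p = 0.25) was called higher with array weights (1.02, adjusted p = 0.033). CDK inhibitors keep pocket proteins active, and 6 of them were measured, while Cdkn1a had no match and is not covered. Of the 6, Cdkn2c alone rose (7.04 ± 0.23 against 4.94 ± 0.25, 4.30-fold, adjusted p = 0.00014), against 1.55% called higher over all genes. Cdkn1b (0.77 ± 0.31) and Cdkn2d (0.63 ± 0.20) had adjusted p-values of 0.49 and 0.28, and Cdkn2b (0.15 ± 0.14), Cdkn1c (-0.11 ± 0.14) and Cdkn2a (-0.04 ± 0.16) lay closer to 0. None of 13 corepressors that pocket proteins recruit passed in limma (list median 0.24), where 3 were higher and 1 lower at an unadjusted p below 0.05, and the largest difference was that of the DNA methyltransferase gene Dnmt1 (0.80 ± 0.18, adjusted p = 0.083, or 0.010 with array weights). Rbbp7, a histone-binding gene named after its value was seen (0.66 ± 0.14, adjusted p = 0.064), was called with array weights (adjusted p = 0.027) and with the floor (adjusted p = 0.040). Of 12 genes known to act on FoxM1 or B-Myb, 6 rose and none fell, against 1.55% called higher over all genes (list median 0.84). The largest rises in that list were Cdk1, Ccna2 and Plk1, the mitotic kinase gene whose product activates FoxM1 (7.84 ± 0.55 against 4.68 ± 0.34, 8.95-fold, adjusted p = 0.00015). Ccna2, Cdk1 and Plk1 each stand in more than 1 of these lists. Cdk1 and Plk1 are also in the list of G2/M targets below, and the sort used the cyclin B1 reporter. The list of genes acting on FoxM1 or B-Myb is therefore not independent of how the groups were made.

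Known targets of these complexes rose in number. Of 44 genes of G2 and mitosis known as targets of MuvB with B-Myb and FoxM1, 43 rose and none fell, against 1.55% called higher over all genes, and the list median was 3.10. Cdc25b, a phosphatase gene, was the exception (0.33 ± 0.15, adjusted p = 0.59). Large measured differences were those of the spindle genes Prc1 (4.71, limma adjusted p = 1.1e-06) and Kif11 (4.56, adjusted p = 3.8e-06). With the floor at the array medians the estimates for Prc1 and Kif11 were 13.3-fold and 19.5-fold higher. The mitotic kinase gene Cdk1 was 22.7-fold higher (adjusted p = 1.2e-06). Prc1 had the largest measured difference (4.71), with GFP-negative values under the array medians. With the floor its difference was 3.73, below those of Cdk1 (4.51), of Kif11 (4.28) and of the topoisomerase gene Top2a (4.45), which was named after its value was seen. Among E2F targets that act in G1/S and replication, 28 were measured, of which 15 rose and 0 fell (list median 0.97), led by the ribonucleotide reductase genes Rrm2 (6.66-fold, adjusted p = 5.0e-05) and Rrm1 (4.25-fold, adjusted p = 0.00025) and the primase gene Prim1 (3.63-fold, adjusted p = 0.00021). Leaving out single arrays gave 40 to 43 of the first list and 11 to 15 of the second. The sort itself used the cyclin B1 reporter, so the G2/M list is not independent of how the groups were made. In 24 of its 44 genes the GFP-negative mean was under the array medians, and with the floor applied the list median was 2.74.

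**Figure D3:**
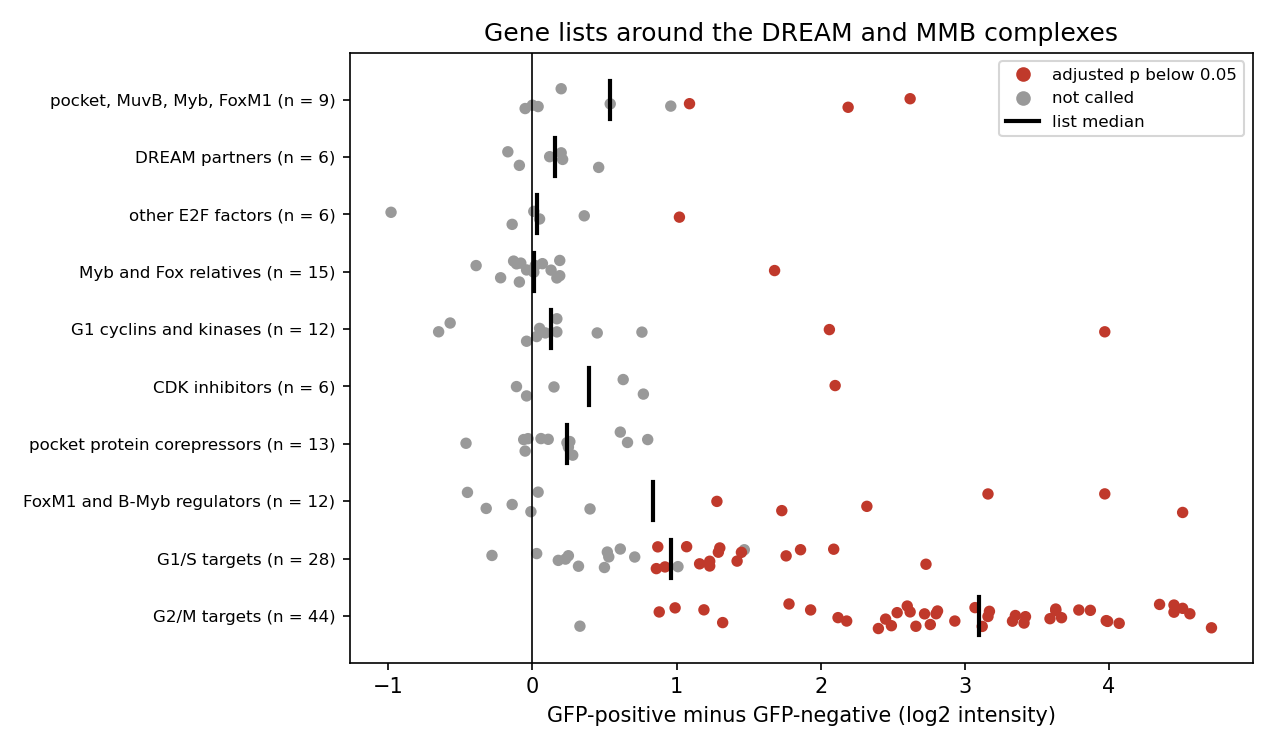
Difference between GFP-positive and GFP-negative cells (horizontal axis, log2 intensity) for each gene of 10 lists, with genes called at an adjusted p below 0.05 in red, other genes in grey and list medians as black bars. Called genes fill the G2/M list (43 of 44, median 3.10) and 15 of 28 genes of the G1/S list, while none of 6 DREAM partners and 3 of the 9 pocket, MuvB, Myb and FoxM1 genes were called.

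The promoter windows of the 2 target lists are described by counts alone. Of 38 G2/M genes with a window, 30 (78.9%) held TTTGAA or TTTAAA in at least 1 window, against 30.6% of 27025 genes in the table, and 26 (68.4%) held TTTGAA, against 20.2%. An E2F core was found in 5 (13.2%) of them, against 11.6% of all genes. Of 24 G1/S genes with a window, 17 (70.8%) held an E2F core and 6 (25%) a CHR form. CCAAT was found in 78.9% of the G2/M genes and 75.0% of the G1/S genes, against 41.1% of all. Both lists were drawn up from known targets, so these shares describe the lists and are no independent evidence.

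**Figure D4:**
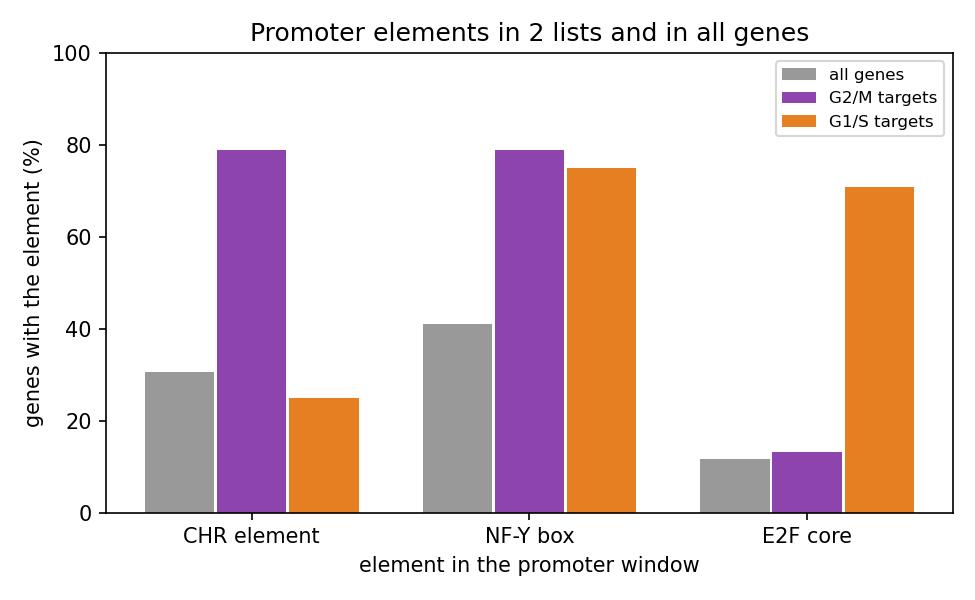
Share of genes (vertical axis, percent) with a CHR form, an NF-Y box or an E2F core in at least 1 of their 300-base promoter windows, for all 27025 genes of the table (grey), 38 G2/M targets (purple) and 24 G1/S targets (orange). CHR forms stand out in the G2/M list (78.9%) and E2F cores in the G1/S list (70.8%), while the NF-Y box is frequent in both.

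The genes most like each called member were found by the Euclidean distance between log2 values centred per gene over the 6 arrays, as a description. Closest to Foxm1 were Parpbp (distance 0.27), the kinesin gene Kif2c (0.45) and the ubiquitin-conjugating enzyme gene Ube2c (0.60). Closest to Rbl1 were Arhgap19 (0.22), the histone variant gene H2ax (0.28) and the translesion polymerase gene Polh (0.33). Closest to Lin54 were the replication fork gene Tipin (0.22), the thymidylate kinase gene Dtymk (0.23) and Anp32e (0.24), which encodes a histone chaperone. All 9 were called higher, which follows from choosing them by closeness to genes called higher and is no separate result. Their differences were 2.58 to 2.81 beside Foxm1, 2.04 to 2.06 beside Rbl1 and 1.02 to 1.13 beside Lin54. Tipin had an adjusted p of 0.056 in limma without GFP-positive 1.

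The labelled tissue matched its markers in both groups. The mean of 15 hepatocyte markers lay between 11.56 and 11.81 in all 6 arrays. None was called by limma (median difference -0.13), and 1 of 15 was lower at an unadjusted p below 0.05, which 8.8% of all genes reached in either direction. However, 12 of the 15 differences were below 0, and in 5 every GFP-positive value lay below every GFP-negative one, as in 6.98% of all genes. The same held for 2 of 12 Kupffer, 3 of 12 endothelial and 4 of 12 stellate cell markers. The summed intensity of the hepatocyte list was 70275 to 71582 in GFP-negative and 63591 to 67630 in GFP-positive arrays. Clec4f, 1 of 12 Kupffer cell markers, was lower by limma (-0.68 ± 0.13, adjusted p = 0.032, but 0.077 with the block), a call that did not hold when any 1 array was left out (adjusted p = 0.070 to 0.15). The summed intensity was lower in GFP-positive arrays for the Kupffer list (226 to 245 against 265 to 326), for 12 endothelial markers (368 to 383 against 411 to 501) and for 12 stellate cell markers (408 to 473 against 520 to 585), and 5, 2 and 3 genes of these lists were under the array medians in every array. In the Kupffer list 9 of 12 genes had a GFP-negative mean under the array medians. With the floor the list medians were 0.01, -0.09 and -0.03 in the same order. No endothelial or stellate marker passed in limma, where 2 and 3 were lower at an unadjusted p below 0.05, with Cdh5 (-0.71 ± 0.27, adjusted p = 0.44) and Dcn (-0.86 ± 0.26, adjusted p = 0.24) furthest from 0. The 9 erythroid markers had a median difference of -0.01, with 5 below 0 and 1 lower at an unadjusted p below 0.05, Car1 (-0.65 ± 0.27, adjusted p = 0.51), named after its value was seen. Car2 alone was called higher (0.95 ± 0.16, adjusted p = 0.016), a call that did not hold without GFP-negative 1 or 3 or without GFP-positive 1 or 3 (adjusted p = 0.058 to 0.085). None of 7 cholangiocyte, 11 lymphoid and 10 neutrophil markers passed in limma, where 0, 0 and 1 were lower at an unadjusted p below 0.05. In these lists 4, 9 and 6 genes were under the array medians in every array. The genes with the largest measured differences, Cftr, Ms4a1 and S100a8, were under the medians in 6, 6 and 5 of 6 arrays, and with the floor their differences were 0.03, 0.03 and -0.07. The part of these cell types in the results on the 9 genes was not tested.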

How the data were processed

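RNA from 3 GFP-positive and 3 GFP-negative liver cell samples was measured on Affymetrix arrays, after amplification from 10 ng of total RNA per the labels' protocols. The deposited values are intensities that the authors made with RMA, which corrects background, normalizes between arrays and summarises probe sets, per the submitters' processing notes, with version and settings not given in the sources used here. They are linear (1.62 to 15836, array medians 24.3 to 26.7), so log2 was taken, with no further normalization. Of 35512 probe sets, 21789 have 1 gene symbol in the platform annotation, and 21698 of these were updated through Entrez identifiers with a GRCm38.p6 gene table used for names. Where a gene had several probe sets (999 genes), the one with the highest mean over the 6 arrays stood for it.

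The test was limma (version 3.58.1, R version 4.3.3): lmFit then eBayes on the group term, with 4 residual and 5.44 prior degrees of freedom and Benjamini-Hochberg adjustment over 19938 genes at 0.05. Where a called gene's GFP-negative mean was under the array medians, the fold was computed with each array's median as the lowest value. Such a fold is a point estimate that allows for the low level but not for the spread between arrays. Alternatives were a replicate block, quantile normalization, median centring, a filter leaving 13292 genes, other probe set rules, an intensity trend, array weights, the floor, other thresholds and arrays left out. On simulated data of this size the test called 2%, 70%, 96% and 100% of genes changed by 0.5, 1, 2 and 3 on the log2 scale, 6.9% of its calls were false, and differences of 0.5 are therefore mostly beyond its reach. Plots used Python 3.11.15 and matplotlib 3.10.9.

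The 9 genes, the 17 lists (9 of regulators and targets, 8 of cell type markers) and the tests were chosen with earlier results of these data known. Among 240 listed symbols, 13 had no match and are not analysed here. Named were the 9 genes, all DREAM partners, E2F genes and CDK inhibitors, the 3 called genes with the largest difference of each other list (the largest difference where none was called, and for each marker list), and the 3 nearest genes of each called member, without clone or predicted names.

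Arrays of equal replicate number were treated as 1 mouse in the block, since the design text derives both fractions from 3 livers and Xist was high (9.03 and 9.80) and Eif2s3y low (1.98 and 2.24) in number 2 of both groups alone. Deviations from group means correlated by 0.20, 0.06 and -0.05 for numbers 1, 2 and 3, which gives the pairing little support, and numbers 1 and 3, with low Xist and high Eif2s3y in both, are not told apart by these genes. The labels call the replicates biological. Promoter windows come from a RefSeq table of build GRCm38.p6.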

Additional observations from a re-analysis of the deposited data

How the results depend on the processing

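Foxm1, Rbl1 and Lin54 stayed called in all 16 alternatives run, with differences of 2.18 to 2.85, 1.6 to 2.31 and 1.03 to 1.16 and adjusted p-values of at most 0.0070, 0.0011 and 0.023. Each of these genes has a single probe set, so the other probe set rules left its values as they were and changed only the p-values. Rb1 (0.31 to 0.86) and Rbl2 (0.04 to 0.29) were never called. Lin9 was called with array weights (0.96, adjusted p = 0.034), without both arrays of number 2 (1.31) and without GFP-negative 2 alone (1.20, adjusted p = 0.019). Leaving out single arrays gave 0.77 to 1.20 for Lin9. The sign of uncalled differences near 0 changed: Lin37 was 0.02 with array weights and 0.20 without number 2 (-0.22 to 0.16 with single arrays left out). Lin52 was -0.15 with array weights, -0.03 with arrays centred, -0.21 without number 2 and -0.02 after quantile normalization (-0.16 to 0.21). Mybl2 was -0.13 without number 2 (-0.11 to 0.15). The ratio of Lin9 to Lin54 was 0.24 without number 2 (-0.31 to 0.16), and that of Mybl2 to Rbl2 lay between -0.31 and 0.10 with single arrays left out. With the replicate block 327 genes were higher and 28 lower, against 310 and 23, the block changed no call among the 9 genes, and exact sign flips within numbers gave the 4 ratios that had p = 0.1 a p of 0.25, the smallest possible. The count of lower genes was 53 with array weights, 13 with arrays centred, 9 without number 2, 38 after quantile normalization, 3 and 46 at thresholds of 0.01 and 0.1, and 6 to 29 with single arrays left out, while that of higher genes stayed within 1.5 times of 310. The cause of these changes was not tested. Signal near the array medians limits Mybl2 and the GFP-negative levels of Rbl1 and Foxm1.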
